A study of Rattus norvegicus with 59 samples.

Results

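The genes described here are 37 DNA repair genes, chosen by name for their known roles, in livers of rats given Cd or Cr. Earlier results of the data were known when these genes were chosen. Of these, 35 had at least 1 probe set annotated to that symbol alone, out of 14217 genes represented in that way on the array. They comprised 11 genes of base excision repair, 14 of the 15 listed for nucleotide excision repair, 7 of the 8 listed for double-strand break repair, 2 of mismatch repair (Msh6 and Pms2) and Mgmt, which reverses damage directly. Gtf2h2 had no probe set under its symbol. Mre11a was annotated under its newer symbol Mre11 and was read separately. Male Sprague-Dawley rats received 1 intraperitoneal injection of CdCl2 at 1.25 mg/kg, Na2Cr2O7 at 20 mg/kg or sterile saline, and livers were collected 1, 3 or 7 days later. The labels give 20 mg/kg for every exposed Cr liver. The study's methods name a lower dose for the arrays in 1 sentence and the high dose in another, and the labels were followed. Each metal had 5 saline control livers of its own on each day, and each exposed group had 5 livers, except for the Cd group of day 1. That group held 4 livers, since the authors excluded 1 that clustered with the controls and had not taken up Cd. The sources used here give the body weight of the rats but no age. RNA of whole liver was hybridised, 1 array per liver, which gave 59 arrays (29 for Cd and 30 for Cr).

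Cells remove DNA damage by several routes that differ in the lesion they recognise. In base excision repair a glycosylase cuts out a single damaged base, Apex1 nicks the strand at the abasic site, and Polb and a ligase close the gap. Nucleotide excision repair removes bulky adducts: Xpc with Rad23b, or Ddb1 with Ddb2, finds the lesion, the TFIIH complex opens the helix, and Xpa and the Ercc1 nuclease partner complete the excision. The Mre11, Rad50 and Nbn complex and the Ku pair, Xrcc5 and Xrcc6, bind double-strand breaks, Msh6 and Pms2 act on mispaired bases, and Mgmt takes alkyl groups off guanine. Chromate is reduced inside cells to forms that bind DNA, and Cd is known to interfere with repair proteins.

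Signals are log2 values, and a difference of 1 on this scale is a doubling. A gene was read on its brightest probe set, and an exposed group was compared with the control livers of the same metal and day in limma. A gene was called changed at an adjusted p of 0.05 or less, with Benjamini-Hochberg adjustment over the 15521 probe sets tested, which are the brighter 50% of the array. The labels number the livers as biological replicates. Of the 35 genes, 32 were among the tested probe sets. Mutyh, Ercc2 and Brca1 had mean signals of 4.22, 5.21 and 3.46 over all arrays, below the lowest tested mean of 5.41, and have no adjusted p. Before the results, 1 array stood slightly apart: liver 5 of the Cr group of day 1 had the lowest mean correlation with its own group of all 59 arrays (0.986, against up to 0.994). The next lowest was liver 2 of the Cd group of day 7, at 0.987. Values without Cr liver 5 of day 1 are given where that liver decides a call.

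One day after Cr, most of the repair genes were more abundant. Of the 32 tested, 19 rose (59.4%) and 2 fell (6.25%), while 11 did not pass the test. Over all probe sets tested, 27.9% rose and 17.8% fell in the same comparison. The split of all probe sets depended on the scaling of the arrays. With renewed quantile normalization 22.7% rose and 22.1% fell, and 18 repair genes rose and 4 fell. With array medians subtracted 20.0% of all probe sets rose and 26.8% fell, and 17 repair genes rose and 5 fell. The median log2 difference of the repair genes was 0.29, against 0.04 for all probe sets and 0.08 when every gene was read on its brightest probe set. Most differences were modest. Only Apex1 also exceeded the 1.8-fold threshold that the study used, which 4.83% of all probe sets met. In 12 repair genes every Cr liver lay above every control liver, and in 1 every Cr liver lay below, against 12.7% and 8.0% of all probe sets. Without Cr liver 5 the counts were 18 higher and 3 lower, and the median difference was 0.34.

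**Figure D1:**
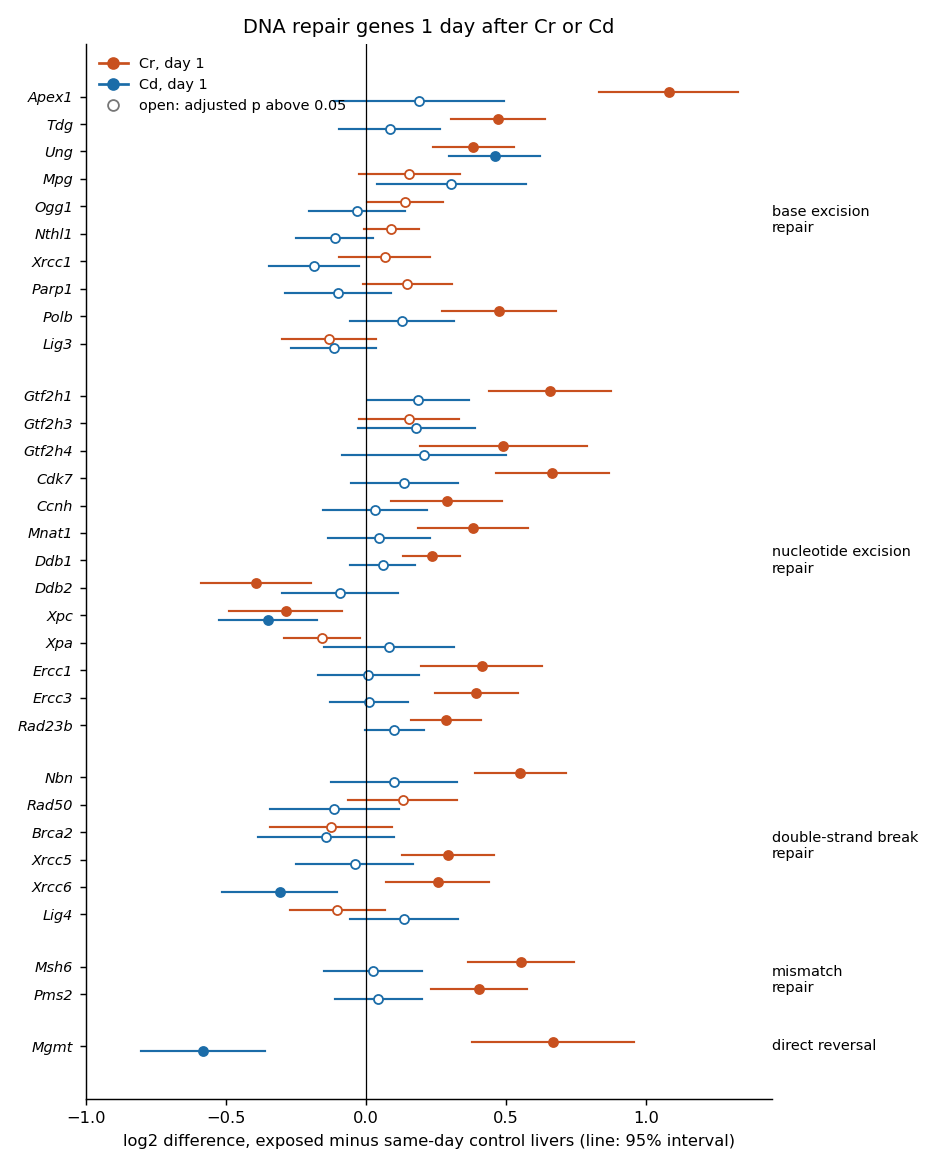
Log2 difference between exposed and same-day control livers 1 day after Cr (orange) and Cd (blue) for the 32 repair genes tested, grouped by pathway. Circles are estimates, lines 95% intervals, and filled circles passed the test. Of the Cr estimates, 21 are filled, 19 to the right of 0, and of the Cd estimates 4 are filled, 1 of them to the right.

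In base excision repair, Apex1, the main endonuclease for abasic sites, showed the largest rise of the 32 genes. Its log2 signals after Cr were 9.25, 8.75, 8.98, 9.36 and 8.89 in livers 1 to 5, and 8.15, 8.01, 8.10, 7.83 and 7.75 in the control livers. The groups did not overlap. Apex1 rose 2.11-fold, from a mean of 7.97 ± 0.17 to 9.05 ± 0.25 (SD, n = 5 each), a log2 difference of 1.08 (SE 0.12, limma adjusted p = 1.27e-07). A second probe set for Apex1, too dim to be tested, differed by 0.03 (SE 0.09). Among the glycosylases, Tdg (log2 difference 0.47) and Ung (0.38) rose, with every Cr liver above the controls. Tdg acts on mispaired thymine and Ung removes uracil. Mpg, Ogg1 and Nthl1, which remove alkylated purines, oxidised guanine and oxidised pyrimidines, differed by 0.15, 0.14 and 0.09 and did not pass the test. Nthl1 had a second tested probe set, at 0.33 (adjusted p = 0.00881). Polb, the gap-filling polymerase, rose by 0.47 on its brightest probe set, while its other tested probe set differed by -0.15 (adjusted p = 0.137), so the call of Polb rests on 1 probe set. The scaffold Xrcc1 (0.07), the break sensor Parp1 (0.15) and the ligase Lig3 (-0.13) did not pass, although Lig3 was called lower without Cr liver 5 (-0.19). The second probe set of Lig3 stood at 0.40 (adjusted p = 0.00195), opposite in sign to the first. Of the 10 listed genes tested in this pathway 4 rose (40%) and 0 fell, where 27.9% of all probe sets rose and 17.8% fell. Mutyh, which pairs with Ogg1 in repair of oxidised guanine, was too dim to be tested (4.12 after Cr and 4.34 in controls).

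Nucleotide excision repair had 9 genes that rose (69.2%) and 2 that fell (15.4%) among 13 tested, against 27.9% and 17.8% of all probe sets. Of the 9 that rose, 6 encode parts of the TFIIH complex, its kinase module included. Cdk7, the kinase of that module, had log2 signals of 8.80, 8.40, 8.74, 8.96 and 8.68 after Cr and 8.08, 8.25, 8.09, 7.99 and 7.85 in controls. All Cr livers were above all controls, and the difference was 0.67 (SE 0.10, adjusted p = 5.48e-06). Its partners Ccnh and Mnat1, which activate and assemble the kinase, rose by 0.29 and 0.38. The call of Ccnh was lost without Cr liver 3 (0.23) or Cr liver 4 (0.22), and when array medians were subtracted (0.19). The core subunit Gtf2h1 rose by 0.66 (SE 0.11), from 7.86 ± 0.11 to 8.52 ± 0.18 (SD, n = 5 each), and its second probe set by 0.50. Gtf2h4, another core subunit, rose by 0.49 (SE 0.15), although Cr liver 5, at 7.12, lay within the controls. The helicase Ercc3 rose by 0.39 and Ercc1 by 0.41, and their groups overlapped in part. Gtf2h3 differed by 0.15 and did not pass, and the other helicase, Ercc2, was too dim to be tested (5.29 after Cr and 5.25 in controls).

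The damage-recognition genes of this pathway moved in both directions. Ddb2, the small subunit that binds ultraviolet photoproducts, had log2 signals of 6.33, 6.74, 6.32, 6.26 and 6.73 after Cr and 6.90, 6.80, 6.84, 7.00 and 6.80 in controls. Every Cr liver was below every control, and Ddb2 fell by 0.39 (SE 0.10, adjusted p = 0.0015). A second probe set fell by 0.30. Its partner Ddb1 rose by 0.24, without overlap, on 1 probe set, while its other probe sets differed by 0.03 and 0.11 and did not pass. Xpc, which recognises distorted helix, fell by 0.29 (SE 0.10, adjusted p = 0.0178), with 4 of 5 Cr livers below the control mean. That call was lost without Cr liver 5 (-0.24) or control liver 2 (-0.25). Rad23b, which stabilises Xpc, rose by 0.29 and by 0.64 on a second probe set. Xpa, which verifies the lesion, differed by -0.16 (adjusted p = 0.0514) and was called lower without Cr liver 5 (-0.21).

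In double-strand break repair 3 of 6 genes rose (50%) and 0 fell, against 27.9% and 17.8% of all probe sets. Nbn, the signalling subunit of the Mre11 complex, had log2 signals of 9.34, 9.30, 9.38, 9.41 and 8.98 after Cr and 8.68, 8.58, 8.77, 8.82 and 8.81 in controls. The groups did not overlap, and Nbn rose by 0.55 (SE 0.08, adjusted p = 3.66e-06). Rad50 of the same complex differed by 0.13 on its brightest probe set and did not pass, but rose by 0.48 (adjusted p = 1.90e-04) on a dimmer one. Mre11 itself was too dim for the test and differed by 0.45 (SE 0.14, unadjusted p = 0.00287). Of the Ku pair, Xrcc5 rose by 0.29 on its brightest probe set. A dim, untested one differed by 0.09, and the mean of both (0.19) was not called. Xrcc6 rose by 0.26 (SE 0.09, adjusted p = 0.0212), with signals of 7.37, 7.44, 7.41, 7.39 and 7.99 in Cr livers 1 to 5 against 7.32, 7.30, 7.22, 7.33 and 7.14 in controls. Cr liver 5 was far above the others, and without it the difference was 0.14 and not called. The call was also lost without control liver 5 (0.23) and with quantile normalization (0.16) or array medians subtracted (0.16). Brca2 (-0.13) and Lig4 (-0.10), which act in recombination and end joining, did not pass. A second probe set of Lig4 was called higher (0.41). Brca1 was too dim to be tested (3.68 after Cr and 3.67 in controls).

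Both mismatch repair genes on the list rose after Cr, where 27.9% of all probe sets did. Repair genes outside the list, some of which fell, are given further below. Msh6, which binds mispaired bases, had log2 signals of 8.84, 8.55, 8.66, 8.71 and 8.27 against 7.81, 8.17, 8.21, 8.02 and 8.05 in controls, a difference of 0.55 (SE 0.09, adjusted p = 2.37e-05). Pms2, a subunit of the nicking complex, rose by 0.40 (SE 0.08, adjusted p = 2.64e-04). Neither gene overlapped between the groups. Mgmt, the alkyl transferase, stood at 10.19, 10.03, 9.77, 10.04 and 9.10 in Cr livers 1 to 5 and at 9.02, 9.26, 9.24, 9.21 and 9.07 in controls. In 4 of the 5 livers it was above every control, and liver 5 lay within the control range. The mean difference was 0.67 (SE 0.14, adjusted p = 3.68e-04), and 0.85 without liver 5.

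The 5 Cr livers of day 1 differed in how far the repair genes moved. The median difference from the control mean over the 32 genes was 0.34, 0.19, 0.31, 0.37 and 0.08 in livers 1 to 5. The livers with the smaller medians were also those with the smaller changes over the array. The median absolute difference over all probe sets was 0.323, 0.216, 0.252, 0.323 and 0.184. In liver 5, 24 of the 32 genes were above their control mean. The control livers of that day, set against their own mean, had 11 to 19 genes above it. Among the Cr controls of day 7, liver 2 also had 24. RNA quality, read as the signal of 3' over 5' probe sets of Gapdh, was 0.20, 0.82, 0.40, 0.14 and 0.17 (log2) in livers 1 to 5. It ranged from 0.39 to 0.85 in their controls, so livers 1, 4 and 5 lay below every control. The same ratio for beta-actin was 1.62, 2.51, 1.89, 1.64 and 1.69, against 1.92 to 2.46. The part of RNA quality in the result was not tested.

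One day after Cd, few repair genes passed the test. Of the 32 genes 1 rose (3.12%) and 3 fell (9.38%), where 12.8% of all probe sets rose and 10.6% fell, and 28 were not called. None (0 of 32) exceeded 1.8-fold, a mark met by 3.86% of all probe sets. At an unadjusted p of 0.05 or less there were 7 genes (21.9%), 3 of them higher, in limma, against 34.5% of all probe sets. The median difference was 0.04, against 0.01 for all probe sets. For the genes not called, a p above the threshold does not show that they were unaltered. The 95% interval for Apex1, for example, ran from -0.11 to 0.49.

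The gene that rose was Ung. Its log2 signals were 9.04, 9.19, 9.41 and 9.36 in Cd livers 1, 2, 4 and 5 and 8.83, 8.90, 8.80, 8.79 and 8.63 in the controls. The groups did not overlap, and the difference was 0.46 (SE 0.08, adjusted p = 1.03e-04). Mgmt moved the other way, with 8.38, 8.25, 8.10 and 8.60 after Cd and 8.92, 8.93, 8.95, 8.95 and 8.81 in controls. All 4 Cd livers were below all controls, and Mgmt fell by 33.1%, a log2 difference of -0.58 (SE 0.11, adjusted p = 2.17e-04). Xpc fell by 0.35 (SE 0.08, adjusted p = 0.00326), from 8.71 ± 0.12 (SD, n = 5) to 8.36 ± 0.14 (SD, n = 4), without overlap. Xrcc6 fell by 0.31 (SE 0.10, adjusted p = 0.0246), with signals of 6.66, 6.85, 7.11 and 6.81 after Cd and 7.19, 6.97, 7.19, 7.38 and 7.10 in controls, so that 1 Cd liver lay within the controls. The call of Xrcc6 was lost without control liver 4 (-0.25), Cd liver 1 (-0.24) or Cd liver 5 (-0.29). The second probe set of Lig3 also fell after Cd, by 0.37 (adjusted p = 0.0320), while the brightest did not pass (-0.12). Mpg (0.31), Gtf2h1 (0.19) and Xrcc1 (-0.19) had unadjusted p-values of 0.0267, 0.0428 and 0.0245 and did not pass after adjustment.

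Other cells of the liver changed on the same day. Bulk RNA cannot tell fewer cells of a type from less RNA per cell. All 6 measured Kupffer cell and macrophage markers fell after Cd (median difference -3.49), and their mean signal was 5.07 to 7.66 in Cd livers against 8.60 to 9.15 in controls. Cd163, a defining marker, had a mean of 3.90 after Cd and 7.69 in controls. Of the 4 neutrophil and monocyte markers only 2 were bright enough to be tested: S100a9 rose (3.64), and Ly86 differed by -0.58 (adjusted p = 0.0532). The mean of all 4 was 6.54 to 7.48 against 4.89 to 5.74. Of the 7 hepatocyte markers 3 fell, Cyp2e1 (-0.54), Cps1 (-0.31) and Ttr (-0.18), and 0 rose, with a mean of 13.0 to 13.2 against 13.1 to 13.3 in controls. Over all probe sets 12.8% rose and 10.6% fell after Cd. Mean signals of endothelial, stellate and bile duct markers were 8.59 to 8.97, 7.26 to 8.48 and 5.08 to 5.26 after Cd. Their controls were at 7.92 to 8.88, 6.89 to 9.11 and 5.36 to 6.25. After Cr the Kupffer markers were at 8.87 to 9.30 against 8.69 to 8.93, with 1 of 6 called higher. The neutrophil and monocyte markers were at 5.42 to 6.38 against 4.80 to 5.57, with both tested genes higher. Among the hepatocyte markers, at 13.0 to 13.2 against 13.2 to 13.3, Cyp2e1 (-0.57) and Cps1 (-0.32) fell and Apoa1 (0.24) rose. Over all probe sets 27.9% rose and 17.8% fell after Cr. Endothelial, stellate and bile duct markers were at 8.39 to 9.10, 7.16 to 8.47 and 5.45 to 6.17 after Cr. Their controls were at 8.67 to 8.87, 6.86 to 7.24 and 5.25 to 5.67. The part of these cells in the repair gene values was not tested.

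Apex1 and Mgmt differed most between the metals on day 1. The difference between the Cd effect and the Cr effect, each against its own controls, was tested in a joint limma fit. It was called for 13 of the 32 genes (40.6%), all 13 lower after Cd than after Cr, where 24.8% of all probe sets were called in either direction. Mgmt showed the largest difference at -1.25 (SE 0.18, adjusted p = 2.66e-06), being raised by Cr and lowered by Cd. Apex1 followed at -0.89 (SE 0.19, adjusted p = 5.87e-04). Xrcc6 (-0.56), Cdk7 (-0.53), Msh6 (-0.53), Gtf2h1 (-0.47), Nbn (-0.45), Ercc1 (-0.40), Tdg (-0.39), Ercc3 (-0.38), Pms2 (-0.36), Xrcc5 (-0.33) and Nthl1 (-0.20) were also called. All were read on the brightest probe set, on which Lig3 (0.02), Rad50 (-0.24) and Polb (-0.35) were not called. Another tested probe set stood at -0.37 after Cd and 0.40 after Cr for Lig3. For Rad50 it stood at -0.07 and 0.48, and for Polb, the other way, at 0.10 and -0.15. The call of Nthl1 was lost when any 1 of 11 of the 19 livers of day 1 was left out, and that of Xrcc5 for 13 of the 19, with differences of -0.23 to -0.16 and -0.43 to -0.28 over all 19. Ercc1 was not called without Cd liver 1 (-0.36) or 2 (-0.37) or Cr liver 1 (-0.36) or 4 (-0.32), and Pms2 not without Cd liver 1 (-0.30). The calls of Nthl1, Xrcc5 and Ercc1 were also lost with renewed quantile normalization and with array medians subtracted. Those of Nthl1 and Xrcc5 were lost as well when dim probe sets were tested too. Without Cr liver 5 the count was 17, with Mnat1 (-0.41), Polb (-0.40), Rad23b (-0.24) and Ddb2 (0.36) added. Ung and Xpc, which moved the same way after both metals, had differences of 0.08 (95% interval -0.13 to 0.28) and -0.06 (-0.32 to 0.20).

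**Figure D2:**
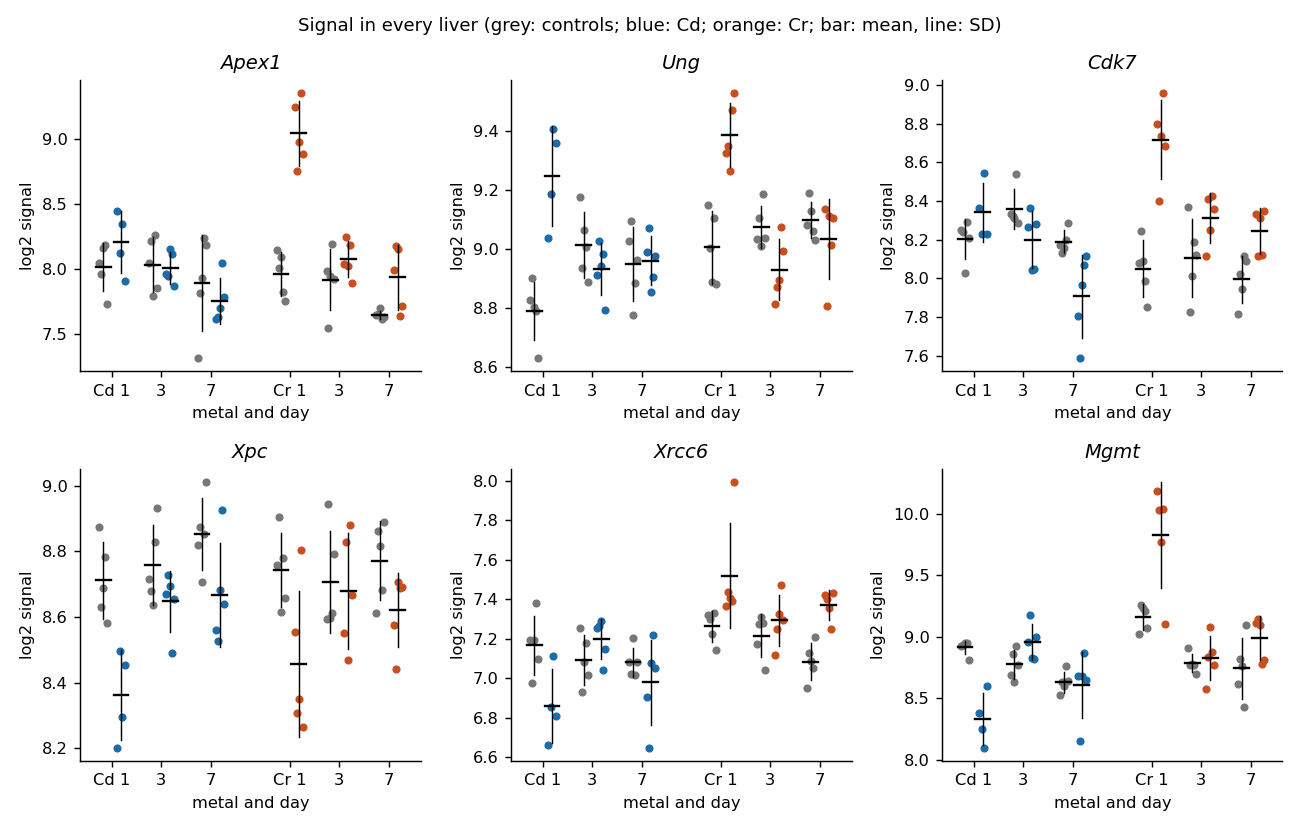
Log2 signal of Apex1, Ung, Cdk7, Xpc, Xrcc6 and Mgmt in every liver, by metal and day. Grey points are control livers, blue Cd and orange Cr, with the mean as a bar and the SD as a line. On day 1 the Cr livers stand apart for Apex1, Ung and Cdk7, and Mgmt lies above its controls in 4 of 5 Cr livers and below them in all 4 Cd livers.

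The start regions of 4 of these genes are shown because they stand for the patterns of day 1: Apex1 rose after Cr, Mgmt rose after Cr and fell after Cd, Ung rose after both and Xpc fell after both. Each sequence is the 250 bases before the RefSeq start on build GRCr8, written 5' to 3' on the gene's strand, and was taken from a promoter table that held 31 of the 35 genes. Capitals mark matches to any of 6 motifs searched on both strands.
Apex1, GRCr8 chr15:26617976-26618225, strand plus: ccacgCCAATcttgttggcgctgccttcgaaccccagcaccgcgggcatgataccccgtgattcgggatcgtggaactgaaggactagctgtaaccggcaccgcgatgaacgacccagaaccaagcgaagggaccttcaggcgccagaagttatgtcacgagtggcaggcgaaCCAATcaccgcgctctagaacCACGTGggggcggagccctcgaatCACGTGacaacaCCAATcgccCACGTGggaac
Mgmt, GRCr8 chr1:201140582-201140831, strand plus: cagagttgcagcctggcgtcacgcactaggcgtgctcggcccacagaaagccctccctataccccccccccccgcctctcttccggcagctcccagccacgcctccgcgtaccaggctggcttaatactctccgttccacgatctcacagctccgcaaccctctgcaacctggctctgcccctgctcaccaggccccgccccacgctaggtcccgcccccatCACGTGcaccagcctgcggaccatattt
Ung, GRCr8 chr12:48154046-48154295, strand minus: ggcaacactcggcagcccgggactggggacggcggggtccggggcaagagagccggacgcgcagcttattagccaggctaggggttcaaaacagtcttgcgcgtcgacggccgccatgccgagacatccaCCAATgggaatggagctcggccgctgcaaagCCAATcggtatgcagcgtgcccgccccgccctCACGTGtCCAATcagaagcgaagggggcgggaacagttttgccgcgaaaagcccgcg
Xpc, GRCr8 chr4:125578085-125578334, strand minus: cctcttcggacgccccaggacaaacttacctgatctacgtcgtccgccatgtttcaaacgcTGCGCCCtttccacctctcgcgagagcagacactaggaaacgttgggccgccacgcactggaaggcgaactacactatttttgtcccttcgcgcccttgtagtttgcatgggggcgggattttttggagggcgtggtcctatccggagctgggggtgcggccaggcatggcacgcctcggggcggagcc

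The motifs were the CCAAT box (CCAAT), the E-box (CACGTG), the core of the metal response element (TGCACNC or TGCGCNC), the core of the antioxidant response element (TGACNNNGC), the E2F site (TTTGGCGC, TTTCCCGC or TTTCGCGC) and the p53 half-site. They were chosen with the expression results known, and the E-box after the sequences had been seen. Apex1 held 3 CCAAT boxes and 3 E-boxes, Ung 3 CCAAT boxes and 1 E-box, Mgmt 1 E-box, and Xpc 1 metal response element core. No matches of different motifs overlapped in these 4 sequences. Of the 31 repair gene promoters 14 held a CCAAT box (45.2%), 7 an E-box (22.6%), 9 a metal response element core (29%), 4 an antioxidant response element core (12.9%), 1 an E2F site (3.23%) and 2 a p53 half-site (6.45%). Among all 33469 promoters of the table, which include non-coding genes and were not matched for base composition, the shares were 34%, 5.59%, 20.6%, 10.1%, 1.41% and 6.64%. A match is a run of letters and was not tested for binding.

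By day 3 no repair gene was called after either metal. After Cd, 0 of 32 genes passed on day 3 and 0 on day 7, where 1.3% and 0.0258% of all probe sets did. After Cr, 0 of 32 passed on both days, where 0% and 0.232% of all probe sets did, so the test called little on the whole array as well. At an unadjusted p of 0.05 or less in limma, 1 gene passed on day 3 (Brca2, 0.29) and 2 on day 7 (Cdk7 and Xpc) after Cd. These were 3.12% and 6.25% of the 32, where 11.9% and 8.21% of all probe sets passed. After Cr there were 6 on day 3 (18.8%) and 7 on day 7 (21.9%), against 8.5% and 10.8% of all probe sets.

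The values on the later days were small. On day 3 after Cr, Nbn was at 8.88, 8.95, 8.94, 8.80 and 8.84 against 8.59, 8.47, 8.77, 8.68 and 8.60 in controls, without overlap, a difference of 0.26 (SE 0.08, adjusted p = 0.219). All 7 genes at that unadjusted threshold on day 7 of Cr were higher: Apex1 (0.29), Xrcc6 (0.29), Cdk7 (0.25), Xrcc5 (0.20), Tdg (0.19), Nbn (0.18) and Ogg1 (0.15). The Cr controls of day 7 were themselves below those of day 1 for these genes, though none of these differences was called. In the same order they were -0.32, -0.18, -0.05, -0.19, -0.16, -0.14 and -0.10. Xrcc6 and Cdk7 did not overlap between the exposed and control livers of day 7, with adjusted p-values of 0.183 and 0.329. All Cr livers lay above all controls for these 2 genes of 32 and for 2.01% of all probe sets, and on day 3 for 1 gene (Nbn) and 1.63%. The median over the 32 genes was 0.08, with 24 of them above 0, against 0.02 and 56.6% of all probe sets above 0. Of 15 genes of cycling cells tested in the same livers 0 passed, with 12 higher at an unadjusted p of 0.05 or less. Their mean signal was 6.35 to 7.18 against 5.38 to 6.58 in controls, ranges that overlap, and its part in these values was not tested. After Cd on day 7, Cdk7 had signals of 7.80, 7.59, 7.97, 8.07 and 8.11 against 8.17, 8.13, 8.16, 8.20 and 8.29, without overlap (-0.28, SE 0.09, adjusted p = 0.413). It was the 1 gene of 32 with all Cd livers below all controls, as were 0.805% of all probe sets. The difference between the metals on day 7 was called for 1 of the 32 genes (3.12%, against 0.722% of all probe sets), Cdk7 (-0.53, SE 0.13, adjusted p = 0.0359). That call was lost when any 1 of 11 of the 20 livers of that day was left out, Cd exposed liver 2 among them (-0.58 to -0.45 over all 20). It was also lost with controls of all days pooled, with dim probe sets tested too, with renewed quantile normalization and with array medians subtracted.

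**Figure D3:**
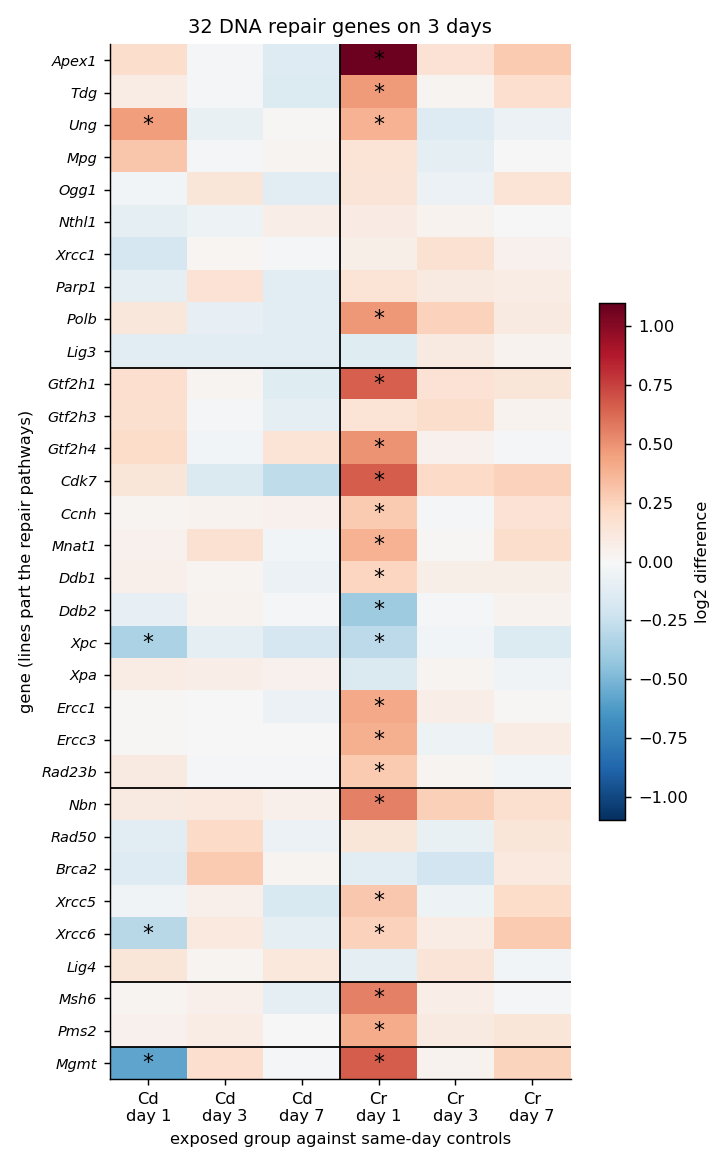
Log2 difference between exposed and same-day control livers for the 32 repair genes tested (rows) after Cd and Cr on days 1, 3 and 7 (columns), red higher and blue lower. Asterisks mark genes that passed the test: 4 on day 1 after Cd, 21 on day 1 after Cr and 0 on days 3 and 7.

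The return between days 1 and 3 was tested directly. After Cr the day 3 effect differed from the day 1 effect in 12 genes (37.5%), where 25.2% of all probe sets were called. The effect was smaller on day 3 for 11 of them, led by Apex1 (-0.92, SE 0.17, adjusted p = 4.19e-04), Mgmt (-0.63), Ung (-0.53), Gtf2h1 (-0.50) and Msh6 (-0.48), while that of Ddb2, which had fallen, was higher by 0.38. The call of Ddb2 was lost when any 1 of 12 of the 20 livers was left out (0.32 to 0.44 over all 20), and that of Mnat1 (-0.37) for 13 of the 20 (-0.45 to -0.28). Rad23b (-0.26) lost it for 5 of the 20 (-0.31 to -0.22) and Xrcc5 (-0.35) for 3 (-0.41 to -0.29). With array medians subtracted, Mnat1, Rad23b and Xrcc5 were not called. When dim probe sets were tested too, Mnat1, Ddb2 and Rad23b were not. Renewed quantile normalization also lost Mnat1, and averaging the probe sets of a gene lost Xrcc5. Without Cr liver 5 of day 1 the count was 18, with Gtf2h4 (-0.58), Ercc1 (-0.43), Nbn (-0.36), Pms2 (-0.36), Lig3 (0.29) and Xpa (0.25) added. Without Cr liver 1 of day 1 the count was 7, and Mgmt was no longer called (-0.54). After Cd 3 genes differed (9.38%, against 11.2% of all probe sets): Ung by -0.54 (SE 0.11), Mgmt by 0.76 (SE 0.15) and Xrcc6 by 0.42 (SE 0.14). The call of Xrcc6 was lost when any 1 of 14 of the 19 livers was left out (0.35 to 0.50 over all 19), and when dim probe sets were tested too. Control livers were compared too. In limma 0 of 32 repair genes were called in each of 4 comparisons with day 1, those of Cd controls on days 3 and 7 and of Cr controls on days 3 and 7, where 0.702%, 0.361%, 0% and 1.1% of all probe sets were. At an unadjusted p of 0.05 or less there were 2, 4, 2 and 6 repair genes (6.25%, 12.5%, 6.25% and 18.8%), against 9.29%, 8.53%, 8.45% and 11.1% of all probe sets.

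**Figure D4:**
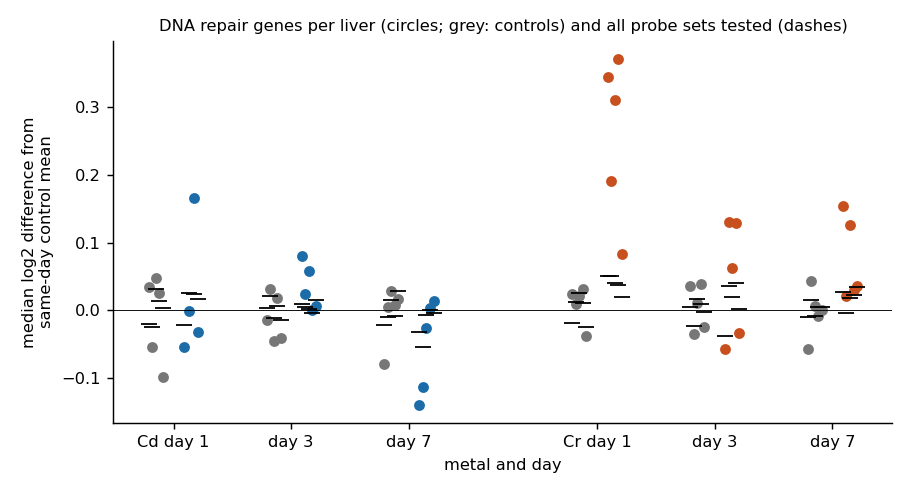
Median log2 difference from the same-day control mean over the 32 repair genes in each liver (circles, control livers grey, Cd blue, Cr orange) and over all probe sets tested (dashes). The 5 Cr livers of day 1 lie at 0.08 to 0.37, above their controls, and their dashes at 0.02 to 0.05.

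Genes outside the list were read for comparison. Of 77 other repair genes, 63 had a probe set and 44 were tested. After Cr on day 1, 18 rose and 4 fell, with a median difference of 0.18, where 27.9% of all probe sets rose and 17.8% fell. The largest rises were Rpa2 (0.97), a subunit that coats single-stranded DNA, the replication clamp Pcna (0.68), the flap nuclease Fen1 (0.67), Mad2l2 (0.56) and Xab2 (0.53), and the genes that fell were Msh3 (-0.39), Fancc (-0.37), Neil1 (-0.26) and Rnf8 (-0.22). The count of rises was 11 without Cr liver 4. After Cd on day 1, Rbbp8 rose (0.34), and Rpa1 (-0.76), Lig1 (-0.51) and Rad52 (-0.30) fell. These were 2.27% and 6.82% of the 44, against 12.8% and 10.6% of all probe sets. Of 11 p53 target genes tested, 7 rose and 1 fell after Cr, where 27.9% and 17.8% of all probe sets did. The rises were led by Ccng1 (1.42), Aen (1.38) and Mdm2 (1.36), and the gene that fell was Sesn2 (-0.25). The fall of Sesn2 was lost without Cr liver 1, 3 or 5 or control liver 2 or 3. After Cd, Fas rose (1.05) and Phlda3 fell (-0.72), where 12.8% and 10.6% of all probe sets did. The call of Phlda3 was lost without Cd liver 4.

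Genes of cycling cells moved apart from each other. Of 15 tested, 9 fell on day 1 after Cd, led by Ccnb2 (-2.90), Ccnb1 (-2.87) and Cdk1 (-2.84), and 0 rose. Over all probe sets 10.6% fell and 12.8% rose. After Cr 6 rose and 3 fell, where 27.9% of all probe sets rose and 17.8% fell. Those that rose included the replication helicase subunits Mcm4 (1.17), Mcm6 (1.09) and Mcm2 (1.03). The 3 that fell were the mitotic genes Ccnb2 (-1.15), Ccnb1 (-0.92) and Plk1 (-0.47). Those 3 were not called without Cr liver 5, and the count of falls was 1 without control liver 3 and 5 without Cr liver 1. The control livers of day 1 had the highest mean signal of these genes, 7.21 to 7.59, against 5.38 to 6.94 in controls of later days. The share of the repair gene values that goes with cell cycling was not tested.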

How the data were processed

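RNA of 59 rat livers was measured on Affymetrix rat genome arrays. The authors summarised the probes by RMA, with the submitters' notes naming Partek software, and deposited log2 signals, which were used unaltered. No 2 arrays were identical. After removal of 57 array control probe sets, 31042 probe sets remained. GEO's platform annotation gave 1 symbol for 20826, several for 436 and none for 9780. The 50% with the highest mean over all arrays were tested, since detection calls were not used here. Each metal was fitted with limma 3.58.1 (statmod 1.5.0) in R 4.3.3 as 6 groups without covariates, and differences between metals in a fit of 12 groups. Named genes were all members with a probe set, plus the largest changes in the lists of other repair, p53 target and cycling genes (up to 5 or 3 in each direction). Members and lists were chosen with earlier results of these data known. The labels give no batch. Exposed and control livers with the same replicate number had a mean correlation of 0.126 in their deviations from the group means. Others had -0.031, which largely follows from centring on the group means and is no separate baseline. The labels do not say what a number shares, so the main fit left numbers out. A fit with a replicate block was run as an alternative. The number of arrays limits precision. The fits were checked on simulated data. Promoters are from RefSeq (GRCr8). Python 3.11.15 and matplotlib 3.10.9 drew the figures.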

Additional observations from a re-analysis of the deposited data

Results flagged for a closer look

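The effect differed between the metals or between days in the repair genes as follows. The Cd effect on day 1 was lower than the Cr effect for Mgmt (-1.25), Apex1 (-0.89), Xrcc6 (-0.56), Cdk7 (-0.53), Msh6 (-0.53), Gtf2h1 (-0.47), Nbn (-0.45), Ercc1 (-0.40), Tdg (-0.39), Ercc3 (-0.38), Pms2 (-0.36), Xrcc5 (-0.33) and Nthl1 (-0.20), and on day 7 for Cdk7 (-0.53). The day 3 effect of Cd differed from that of day 1 for Ung (-0.54), Xrcc6 (0.42) and Mgmt (0.76). The day 3 effect of Cr differed from that of day 1 for Apex1 (-0.92), Mgmt (-0.63), Ung (-0.53), Gtf2h1 (-0.50), Msh6 (-0.48), Cdk7 (-0.46), Ercc3 (-0.45), Tdg (-0.44), Mnat1 (-0.37), Xrcc5 (-0.35), Rad23b (-0.26) and Ddb2 (0.38).

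In 21 of 420 combinations of gene and group, 1 liver lay far from the others by Dixon's test, which chance alone gives in about 1 of 20. Log2 signals are given for that liver, with the range of the others in parentheses. Among controls of day 1, Cd liver 4 was high for Ogg1 at 6.94 (6.56 to 6.66), and Cd liver 5 was low for Ccnh at 8.96 (9.12 to 9.17), Rad23b at 11.55 (11.63 to 11.66) and Mgmt at 8.81 (8.92 to 8.95). Cr control livers of day 1 stood apart for Ercc1 at 6.66 (6.48 to 6.53), Polb at 7.99 (7.66 to 7.74), Brca2 at 5.35 (5.68 to 5.79) and Mpg at 5.93 (6.25 to 6.33). Cr exposed liver 5 of day 1 stood apart for Nbn at 8.98 (9.30 to 9.41), Pms2 at 6.62 (6.85 to 6.91) and Xrcc6 at 7.99 (7.37 to 7.44), and it also had the lowest correlation with its group. On later days controls stood apart for Cdk7 at 8.54 (8.29 to 8.33), Nbn at 8.88 (8.58 to 8.65) and Xpa at 7.01 (6.82 to 6.86) on day 3 of Cd, Pms2 at 6.09 (6.37 to 6.42) on day 7 of Cd and Lig4 at 6.99 (7.29 to 7.39) on day 7 of Cr. Exposed livers stood apart for Nbn at 9.01 (8.58 to 8.68) on day 7 of Cd, Ddb1 at 9.66 (9.48 to 9.51), Ercc1 at 6.32 (6.59 to 6.67) and Lig4 at 6.95 (7.23 to 7.33) on day 3 of Cr, and Polb at 7.55 (7.91 to 8.02) on day 7 of Cr. No cause was tested.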

How the results depend on the processing

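The day 1 result after Cr kept its direction under most alternatives, while its size and the smaller counts moved. Over the processing settings below, the median of the repair genes after Cr ran from 0.19 to 0.34. The genes higher numbered 1 to 23, with 1 under the added 1.8-fold threshold. With 1 liver left out in turn, the repair genes higher after Cr numbered 18 to 20 and those lower 1 to 3 (1 without control liver 2), with a median of 0.25 to 0.34. After Cd those higher numbered 1 to 2 (2 without control liver 1) and those lower 2 to 4, with a median of -0.0091 to 0.0552. The metals differed in 10 to 18 genes, and days 3 and 1 in 2 to 4 after Cd and 7 to 18 after Cr. Among other repair genes 1 to 2 rose after Cd and 11 to 21 after Cr. Cycling genes that rose after Cd numbered 0 to 2 (2 without Cd liver 5), and those that fell after Cr 0 to 5. The p53 targets gave 1 to 2 higher and 0 to 2 lower after Cd, and 0 to 1 lower after Cr.

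With controls of all days pooled, 2 repair genes rose and 5 fell after Cd, 20 differed between metals, and 20 differed between days 3 and 1 after Cr. With plain variance as well, 3 rose and 5 fell after Cd, and the other counts were 20 and 20. Both settings gave 3 other repair genes and 3 cycling genes higher after Cd, 2 p53 targets higher and 2 lower after Cd, and 0 cycling genes lower after Cr. Renewed quantile normalization gave 2 repair genes higher after Cd, 4 lower after Cr and a Cd day 3 median of -0.0075, with 7 other repair and 5 cycling genes lower after Cr and 2 p53 targets lower after Cd. Subtracting array medians gave 5 repair genes lower after Cr, 5 other repair genes lower after Cd, 11 higher and 7 lower after Cr, 6 cycling genes lower after Cr and 2 p53 targets lower after Cd. Fitting only the compared groups gave 1 repair gene lower after Cr, 10 other repair genes higher, 6 cycling genes lower and 0 p53 targets lower. Array weights gave 1 call on day 7 after Cr (Xrcc6), 21 between days after Cr and 1 cycling gene higher after Cd. Both metals in 1 fit gave 2 repair genes higher after Cd, no filter 6 other repair genes lower after Cd, and a filter on the highest group minimum 2 p53 targets lower after Cd. The study's 1.8-fold threshold, added to the adjusted p used here, left 1 repair gene higher and 0 lower after Cr, and 0 and 0 after Cd. It left 2 between metals and 0 and 1 between days. Other repair genes numbered 0 and 0 after Cd and 1 and 0 after Cr, and 0 p53 targets were lower after either metal. The study itself compared exposures with pooled controls, and used an unadjusted p with this threshold on days 3 and 7. Averaging the probe sets of a gene reversed Lig3 in the comparison of metals on day 1 (-0.37). The causes were not tested.

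With the replicate block, 19 repair genes rose and 2 fell after Cr, 14 differed between metals and 13 between days after Cr, and 5 other repair genes rose after Cd and 5 cycling genes fell after Cr. Same-numbered livers had a mean correlation of 0.126, and 16 of 29 correlated best with their own number, with no chance share computed. The mean for other numbers was -0.031. Deviations were taken from group means, so that value largely follows from the first and is no separate baseline. What same-numbered livers share was not tested. Signal over background limits the dimmest genes, and 4 or 5 arrays a group limit all of them.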
